A study of Mus musculus with 6 samples.

Results

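Antimicrobial proteins of the colon epithelium were followed as 10 genes, Reg3b, Reg3g, Reg4, Dmbt1, Lypd8, Lcn2, Retnlb, Itln1, Ang4 and Pla2g2a, chosen by gene symbol from a table of 55487 genes. Each symbol had 1 row, and all 10 were among the 14650 genes with enough counts to be tested. The RNA came from intestinal epithelial cells (IECs) of the colon of mice given dextran sodium sulphate (DSS), an agent that injures the colonic lining. It was taken from 3 Nsd2 f/f libraries, titled WT, in which both Nsd2 alleles are floxed and intact, and from 3 Nsd2 Vil-KO libraries, in which the same floxed alleles are combined with Cre driven by the Villin promoter. Nsd2 encodes a histone H3 lysine methyltransferase, and Villin-Cre acts in the epithelium of the small and the large intestine. All 6 libraries therefore shared the floxed alleles and 2% DSS, and the mice were littermates on a C57BL/6J background. The labels give no age and no DSS day. The study's methods give an age and a course of DSS for its colitis mice in general, without tying them to these libraries. The labels also do not state that each library is a separate animal. The p-values here therefore measure only the spread between these libraries, which may be technical in part. No library came from mice without DSS, and every value is a level after injury. Values of single libraries are given in the order of replicates 1, 2 and 3, with the Nsd2 f/f libraries called controls and the Nsd2 Vil-KO libraries called knockout libraries.

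The colonic epithelium keeps luminal bacteria at a distance with a mucus layer and with secreted proteins that bind, kill or starve microbes. C-type lectins of the Reg family attack bacterial envelopes, scavenger and GPI-anchored proteins agglutinate or immobilise bacteria, and lipocalin 2 withholds iron by capturing bacterial siderophores. Several of these genes respond to bacterial sensing and to cytokines such as IL-22, which acts through STAT3, while others are made constitutively by colonocytes or goblet cells.

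The RegIII lectins Reg3b and Reg3g lie in the same gene cluster on chromosome 6, on opposite strands. Their counts followed each other from library to library, with Reg4 in the reverse order at the extremes. RefSeq promoter sequences (build GRCm38.p6) matched 7 of the 10 members and were not found for Dmbt1, Retnlb and Pla2g2a. The stretches from 170 to 25 bases before the start sites of Reg3b, Reg3g and Reg4 are shown because they let the paired lectins be set beside the third Reg gene. They lie at chr6:78370715-78370860 on the plus strand for Reg3b, at chr6:78468899-78469044 on the minus strand for Reg3g and at chr3:98221986-98222131 on the plus strand for Reg4. The start sites are those of RefSeq, and for Reg3b the RefSeq start lies downstream of the GENCODE gene start given with its values, so that this stretch lies within the GENCODE gene. All are written 5′ to 3′ along the gene, and capitals mark the motif matches described after them.
Reg3b: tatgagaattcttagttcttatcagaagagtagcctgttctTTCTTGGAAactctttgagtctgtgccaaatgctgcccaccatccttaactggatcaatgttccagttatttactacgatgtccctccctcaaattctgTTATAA
Reg3g: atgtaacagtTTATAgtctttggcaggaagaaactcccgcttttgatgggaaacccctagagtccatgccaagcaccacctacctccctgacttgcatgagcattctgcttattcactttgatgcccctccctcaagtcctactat
Reg4: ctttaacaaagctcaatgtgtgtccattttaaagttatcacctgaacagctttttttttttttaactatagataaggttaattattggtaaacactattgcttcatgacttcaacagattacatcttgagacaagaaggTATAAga
In a global alignment, 92 of 148 columns were identical between Reg3b and Reg3g (62.2%), against 45.9% between Reg3b and Reg4 and 45.3% between Reg3g and Reg4. Both strands were searched for TTCNNNGAA, the palindrome that STAT proteins bind, and Reg3b held it at 129 to 121 bases before the start as TTCTTGGAA, while these letters were not found in the Reg3g and Reg4 stretches. Of 32851 promoters, 3.98% held this motif in the same stretch. The TATA letters TATAA occurred in Reg3b and Reg4 close to 30 bases before the start and further upstream on the other strand in Reg3g, and in 13.8% of all promoters. Letters running past the end of a stretch, 25 bases before the start, could not be matched, and the Reg3g stretch ends in tat. A narrow form of the NF-kB motif (0.804% of all promoters) and the C/EBP letters TTGCNNAA (5.59%) were searched too. Neither was found in these 3 stretches. Wider forms of the NF-kB motif were not searched, so NF-kB sites in these stretches are not excluded. In Reg3b the TATAA match overlapped its own reverse-strand match, and no different motifs overlapped.

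The libraries held between 15439123 and 20350539 counted reads. Levels are given in CPM, which are counts relative to the size of the library after scaling by TMM factors. Nsd2 itself was at 47.9, 51.2 and 24.6 in the controls and 24.2, 10.4 and 20.8 in the knockout libraries. The groups did not overlap, although the lowest control was barely above the highest knockout library (log2 fold change −1.16, SE 0.39, edgeR p = 0.0217, exact two-sided permutation p = 0.1, the smallest that 3 against 3 can give). Nsd2 f/f replicate 3 and Nsd2 Vil-KO replicate 2 stood apart from the other 4. They alone held Xist transcripts (4296 and 3684 counts, against at most 5), their mean rank correlation with the other 4 was 0.933, against 0.981 among those 4, and the mitochondrial share of counts was 19.6% in the former, against 5.51% to 9.13% elsewhere. Each member's difference is therefore also given for the 4 libraries without Xist, in which the log2 ratio of the group means of Nsd2 was −1.14. The epithelial markers Epcam, Krt8 and Vil1 were abundant in every library, and Lgals4, the epithelial marker with the highest mean, was between 3584 and 9261 CPM. Among absorptive colonocyte markers Krt20 had the highest mean over the 6 libraries, at 640.2 to 1432 CPM, and Slc51a, a bile acid exporter subunit, passed the screen described next (log2 fold change 4.39, SE 1.79) at 20.8 CPM in Nsd2 Vil-KO replicate 2 and at most 0.975 in the other 5.

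A gene was called when its fold change exceeded 1.2 and its unadjusted edgeR p was below 0.05. These limits are those in the results of the study, which applied them to FPKM values tested with Ballgown, while its methods name an adjusted p, so both kinds of count were made here. An exact permutation test of 3 against 3 libraries is given beside it, whose smallest two-sided p is 0.1. By this screen 482 of 14650 genes (3.29%) were called, 241 higher in Nsd2 Vil-KO (1.65%) and 241 lower (1.65%). This share is below what a p limit of 0.05 alone would pass if no gene differed. The screen therefore gave no excess of calls over all genes, and single calls are to be read with that limit. Of the 10 members, 5 were called: Reg3b, Reg3g and Dmbt1 were higher in Nsd2 Vil-KO, and Reg4 and Itln1 were lower. The same 5 members had non-overlapping groups, a property of 9.90% of all tested genes (5.21% higher and 4.70% lower). The members were chosen with earlier results of these data known, so their shares beside those of all genes show no enrichment. Reg3b and Reg3g also followed each other closely over the libraries (Pearson's r 0.99), so their calls are not separate observations. After Benjamini-Hochberg adjustment over all genes no gene passed 0.05 in edgeR (smallest adjusted p 0.992, with 482 genes at an unadjusted p below 0.05), and DESeq2 gave 4 such genes, of which Dmbt1 was 1. The median log2 fold change of the members was 0.56, against 0.00 over all genes tested, and 6 of the 10 were above 0. In this bulk RNA, fewer cells of a type and less RNA per cell cannot be told apart.

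**Figure D1:**
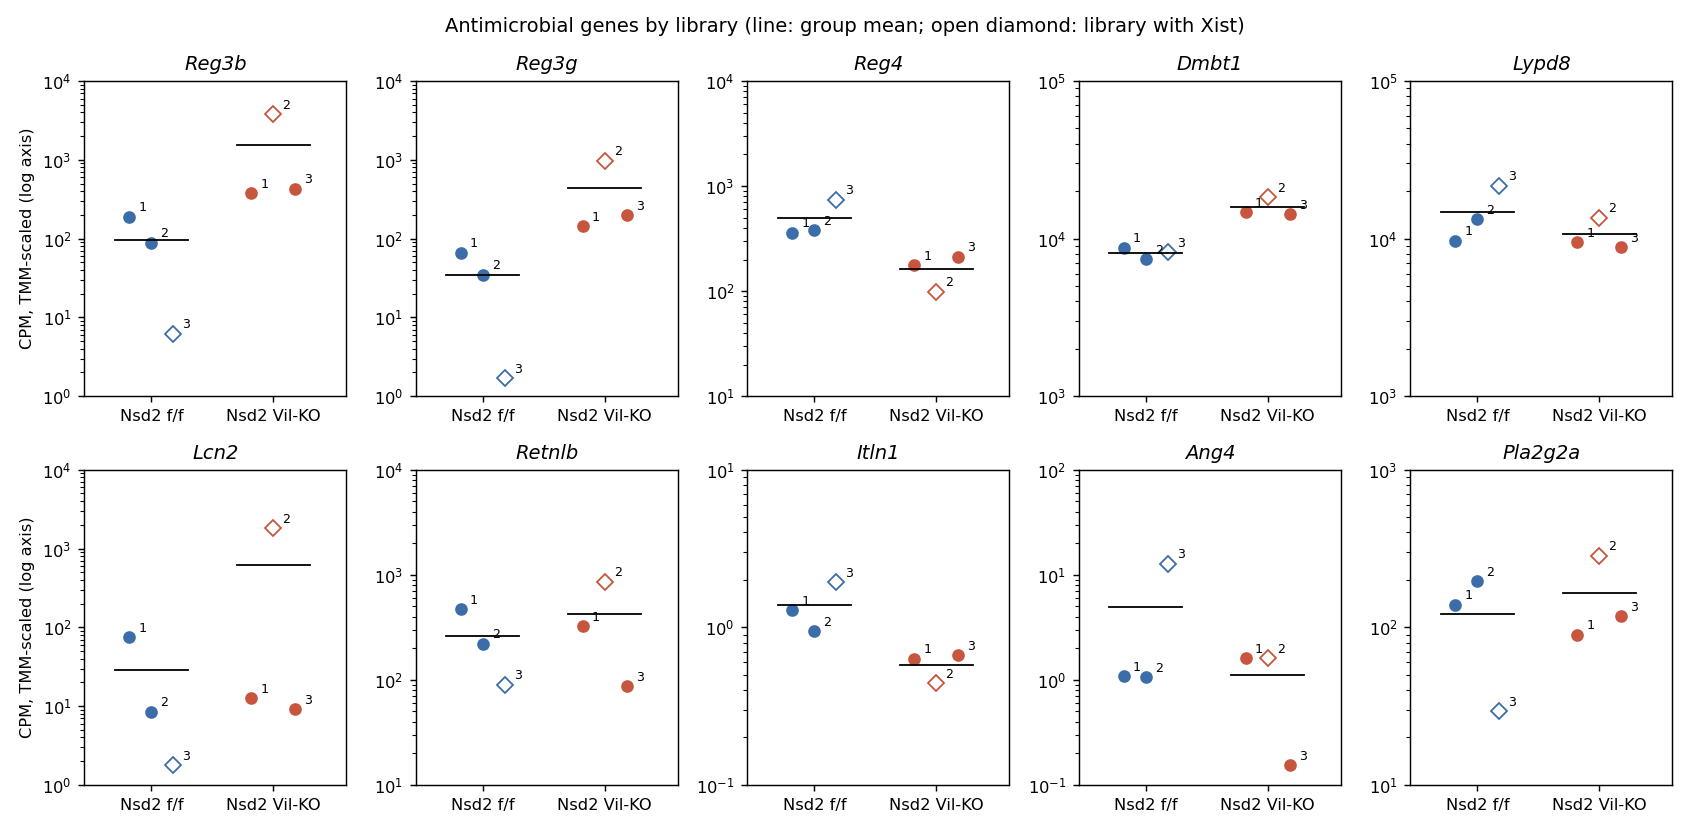
Each panel plots 1 gene, with CPM scaled by TMM factors on a log axis against genotype. Points are single libraries numbered by replicate, open diamonds are the 2 libraries with Xist, and lines are group means of 3 libraries. The groups are apart for Reg3b, Reg3g, Reg4, Dmbt1 and Itln1 and overlap for the other 5, and the libraries with Xist are often the extremes of their group.

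Reg3b and Reg3g, the secreted RegIII lectins, differed most widely between the genotypes among the called members. Reg3b (ENSMUSG00000071356, chr6:78370657-78373466, plus strand) was at 190 CPM in Nsd2 f/f replicate 1, 88.7 in replicate 2 and 6.22 in replicate 3, and at 378 CPM in Nsd2 Vil-KO replicate 1, 3807 in replicate 2 and 428 in replicate 3. All 3 knockout libraries lay above all 3 controls, and the 2 libraries with Xist were the lowest and the highest of the 6. The group means were 94.9 ± 91.9 CPM (SD, n = 3) and 1538 ± 1965 CPM (SD, n = 3). The fitted log2 fold change was 4.02 (SE 1.38, p = 0.0228, adjusted p = 0.992, exact permutation p = 0.1). Over the 4 libraries without Xist it was 1.54 (SE 0.43) and the gene was called. The call was lost when Xist entered the fit of all 6 libraries as a covariate (3.06, SE 1.65) and without a filter on low counts (SE 1.70). It was also lost without Nsd2 Vil-KO replicate 2 (2.09, SE 1.10) and without Nsd2 f/f replicate 2 (3.97, SE 1.75).

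Reg3g (ENSMUSG00000030017, chr6:78466269-78468872, minus strand) binds peptidoglycan and acts mainly on Gram-positive bacteria. It was at 65.9, 34.7 and 1.70 CPM in the controls and at 145, 978 and 200 CPM in the knockout libraries. The order of the 6 libraries was that of Reg3b, and again the groups did not overlap. The log2 fold change was 3.69 (SE 1.25, p = 0.0209, adjusted p = 0.992, exact permutation p = 0.1). Over the 4 libraries without Xist it was 1.78 (SE 0.39) and called. As for Reg3b, the call was lost with Xist as a covariate (3.27, SE 1.53), without a filter (3.67, SE 1.51), without Nsd2 Vil-KO replicate 2 (2.33, SE 1.12) and without Nsd2 f/f replicate 2 (3.70, SE 1.57).

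The ratio of the RegIII lectins within a library is free of the scaling between libraries. While Reg3b itself varied 612-fold over the 6 libraries and Reg3g 576-fold, the ratio of Reg3b CPM to Reg3g CPM varied 1.81-fold. It was 2.88, 2.56 and 3.67 in the controls and 2.61, 3.89 and 2.14 in the knockout libraries. The genotypes overlapped in this ratio (log2 difference −0.10, exact two-sided permutation p = 0.8, where 3 against 3 allows no p below 0.1). Per length of annotated exon, Reg3b was between 3.97 and 7.21 times as abundant as Reg3g. No 50-base stretch of either gene's annotated transcripts was shared with another gene.

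Reg4 (ENSMUSG00000027876, chr3:98222156-98236748, plus strand), a lectin of the same family made by secretory cells including the deep crypt secretory cells of the colon, went the other way. It was at 358, 381 and 741 CPM in the controls and at 177, 98.4 and 213 CPM in the knockout libraries. Every knockout library was below every control, and here the libraries with Xist were the highest and the lowest. The mean fell from 493 ± 215 CPM (SD, n = 3) to 163 ± 58.5 CPM (SD, n = 3), with a log2 fold change of −1.60 (SE 0.40, p = 0.00522, adjusted p = 0.992, exact permutation p = 0.1). Reg4 was the member called in each of the 16 alternative analyses that gave it a p, at log2 fold changes from −1.84 to −0.91, the last being that of the 4 libraries without Xist (SE 0.12). The adjusted p over these alternatives ran from 0.125 to 1.00. Per length of exon, Reg3b was at 0.473, 0.208 and 0.00751 times the level of Reg4 in the controls and at 1.91, 34.6 and 1.80 times in the knockout libraries. The more abundant transcript of this pair was Reg4 in each control and Reg3b in each knockout library. Since each gene already separated the genotypes, in opposite directions, this is a description with no test.

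Markers of the secretory cells in which Reg4 is known had lower summed levels in the knockout libraries, without overlap between genotypes. The summed CPM of 12 goblet cell markers was between 13467 and 14943 in Nsd2 f/f and between 8419 and 11057 in Nsd2 Vil-KO. Muc2, the gel-forming mucin, had a log2 fold change of −0.41 (SE 0.44), and Clca1, a mucus-processing metalloprotease, was called lower (log2 fold change −1.64, SE 0.62). The 6 markers of deep crypt secretory cells summed to between 240.4 and 291 CPM in Nsd2 f/f and between 186 and 224 in Nsd2 Vil-KO, with 0 of 6 called, and Pla2g10, the most abundant of them, had a log2 fold change of −0.39 (SE 0.25). Log2 fold changes were below 0 for 11 of the 12 goblet markers and 6 of the 6 deep crypt markers. Of the single markers, 2 of 12 and 0 of 6 were lower without overlap, beside 4.70% of all tested genes. Muc2 and Pla2g10, the most abundant of their lists, each overlapped between genotypes. The separation of the deep crypt sum rested on Pla2g10, which made up 197 of the 268 CPM of that sum in Nsd2 f/f replicate 3. None of these markers was at 0 in all libraries. Their part in the Reg4 result was not tested.

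Dmbt1 (ENSMUSG00000047517, chr7:131032053-131121630, plus strand) encodes a large scavenger receptor cysteine-rich protein that binds and aggregates bacteria. It was at 8776, 7381 and 8223 CPM in the controls and at 14761, 18347 and 14244 CPM in the knockout libraries. It was the most even member, with a 1.19-fold range among controls and a 1.29-fold range among knockout libraries, and a wide gap between them. The means were 8127 ± 703 CPM (SD, n = 3) and 15784 ± 2234 CPM (SD, n = 3), a 1.94-fold difference. The log2 fold change was 0.96 (SE 0.34, p = 0.0258, adjusted p = 0.992, exact permutation p = 0.1), and DESeq2 gave an adjusted p of 0.0102. Over all alternatives the log2 fold change stayed between 0.84 and 1.03 and the adjusted p between 0.0102 and 1.00. Over the 4 libraries without Xist it was 0.85 (SE 0.16) and called. With 1 library fewer the call was kept in 2 of 6 cases. It was lost without Nsd2 f/f replicate 1 (1.02, SE 0.47) or 2 (0.90, SE 0.49) and without Nsd2 Vil-KO replicate 1 (1.01, SE 0.43) or 3 (1.03, SE 0.46).

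Lypd8 (ENSMUSG00000013643, chr11:58379043-58390728, plus strand), a GPI-anchored protein of colonocytes that binds flagella and keeps motile bacteria out of the inner mucus, was of similar abundance in CPM but did not follow Dmbt1. It was at 9683, 13280 and 21618 CPM in the controls and at 9489, 13592 and 8823 CPM in the knockout libraries. The groups overlapped, and the log2 fold change was −0.48 (SE 0.44, p = 0.306, exact permutation p = 0.4). It was −0.32 over the 4 libraries without Xist. The ratio of Dmbt1 CPM to Lypd8 CPM was 0.906, 0.556 and 0.380 in the controls and 1.56, 1.35 and 1.61 in the knockout libraries. Reads of Dmbt1 thus exceeded those of Lypd8 in each knockout library and in no control (log2 difference 1.38), a comparison that no scaling between libraries can alter. The pair was chosen after the values were seen, so no test is given.

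**Figure D2:**
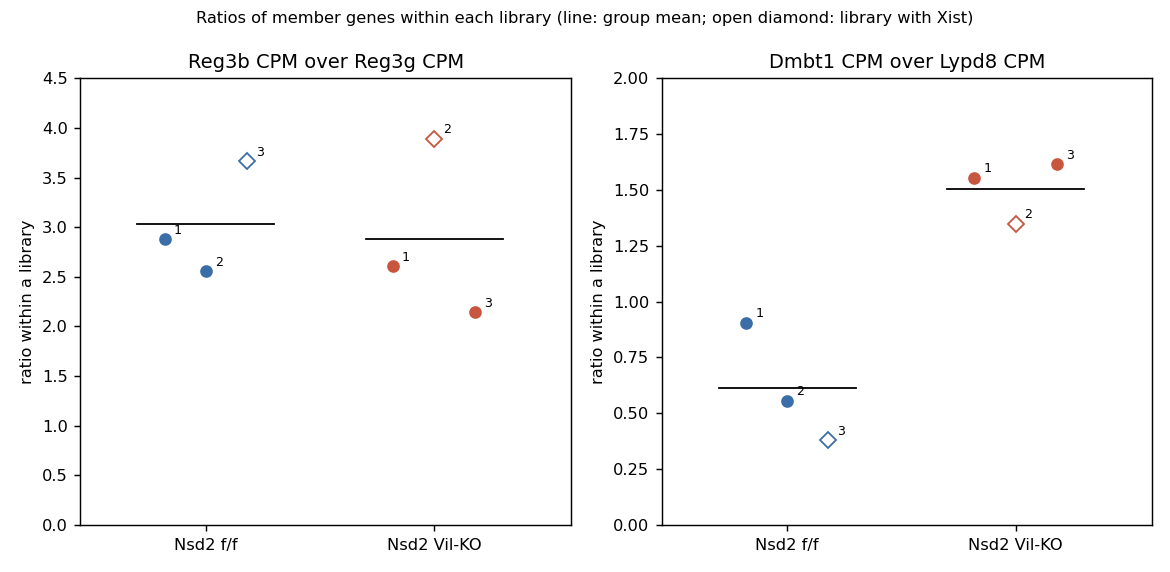
The left panel plots Reg3b CPM over Reg3g CPM and the right panel Dmbt1 CPM over Lypd8 CPM for each library, on axes from 0. Points are libraries numbered by replicate, open diamonds are the libraries with Xist, and lines are group means. The left ratios lie between 2.14 and 3.89 with the genotypes mixed, and the right ratios lie between 0.380 and 0.906 in Nsd2 f/f and between 1.35 and 1.61 in Nsd2 Vil-KO.

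Lcn2 (ENSMUSG00000026822, chr2:32384633-32388252, minus strand), which encodes the siderophore-binding protein lipocalin 2, was decided by 1 library. It was at 75.0, 8.51 and 1.78 CPM in the controls and at 12.5, 1808 and 9.09 CPM in the knockout libraries. Apart from Nsd2 Vil-KO replicate 2, the knockout libraries lay inside the range of the controls. The log2 fold change of 4.42 (SE 2.24, p = 0.0886, exact permutation p = 0.5) was not called, and without that library it was −1.40 (SE 1.38), with −1.95 (SE 1.36) over the 4 libraries without Xist. It passed the screen without Nsd2 f/f replicate 1 (6.86, SE 2.80) and without Nsd2 Vil-KO replicate 3 (SE 2.03), 2 of the fits that keep the high library.

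Neutrophils are another source of Lcn2, and the sum of their markers was highest in the same library, while the markers themselves were divided. The summed CPM of 10 neutrophil markers was between 207 and 903 in Nsd2 f/f and between 198 and 2363 in Nsd2 Vil-KO, the highest being replicate 2. Ly6g, S100a8 and S100a9 made up most of that sum, and Ly6g, the most abundant of the list, was at 1355 CPM there and between 163 and 237 CPM in the other 5. Retnlg, Cxcr2, Csf3r, Mmp8 and Elane were instead highest in Nsd2 f/f replicate 1. The granule genes Mpo and Elane were at or under 0.297 CPM in every library, and the receptor gene Csf3r was at 0.666 CPM in Nsd2 Vil-KO replicate 2, against 31.0 in Nsd2 f/f replicate 1. No marker of the list was at 0 in all libraries, and 0 of the 7 tested was called. The part of neutrophils in the Lcn2 level was not tested.

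Retnlb (ENSMUSG00000022650, chr16:48816856-48818892, plus strand), the goblet cell protein RELMβ, which acts on Gram-negative bacteria, was at 472, 221 and 89.6 CPM in the controls and at 322, 863 and 86.9 CPM in the knockout libraries. The groups overlapped widely, and the log2 fold change was 0.70 (SE 0.85, p = 0.438, exact permutation p = 0.8), with −0.74 over the 4 libraries without Xist (SE 0.94). Retnlb was not called in any alternative.

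Itln1 and Ang4 were scarce, so their values rest on few reads. Itln1 (ENSMUSG00000038209, chr1:171518122-171535294, minus strand), a lectin that recognises microbial sugars, had 26, 16 and 24 reads in the controls and 13, 8 and 13 reads in the knockout libraries. In CPM these were 1.29, 0.945 and 1.94 against 0.634, 0.444 and 0.664, without overlap. The log2 fold change of −1.22 (SE 0.48, p = 0.0393, adjusted p = 0.992, exact permutation p = 0.1) was called in 4 of 15 alternatives and not over the 4 libraries without Xist (−0.78, SE 0.52). With 1 library fewer it was called only without Nsd2 f/f replicate 2 (−1.43), and it lost the call at −1.32 to −0.94 without Nsd2 f/f replicate 1 or 3 or any 1 of the knockout libraries. In its annotated transcripts 0.972% of 50-base stretches were shared with Gm9765, so a few reads could have been split.

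Ang4 (ENSMUSG00000060615, chr14:51763878-51773590, minus strand), a secreted ribonuclease with antimicrobial activity, had 22, 18 and 158 reads in the controls and 33, 29 and 3 reads in the knockout libraries. Both the highest control and the lowest knockout library stood far from the others of their group, and the groups overlapped. The log2 fold change was −2.09 (SE 1.17, p = 0.117, exact permutation p = 0.6), with 0.06 without Nsd2 f/f replicate 3 and −0.25 over the 4 libraries without Xist. With Ang2 and Ang5 it shared 4.70% of its 50-base stretches, so its counts are uncertain to that extent. Of the Paneth cell markers, which mark another known source of Ang4, the 6 defensin genes were near the limit of detection. Each was at or under 0.61 CPM in every library, and Defa17 was at 0. Lyz1 was at 2.87, 4.02 and 5.09 CPM in the controls and at 4.49, 0.388 and 0.868 CPM in the knockout libraries. It was not called (log2 fold change −1.03, SE 0.80). Mmp7, at 7.76 to 145 CPM, made up most of that list's sum, which reached 53.9 CPM in Nsd2 f/f and 146 CPM in Nsd2 Vil-KO.

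Pla2g2a (ENSMUSG00000058908, chr4:138831857-138835186, plus strand) encodes a secreted phospholipase that attacks bacterial membranes, and GENCODE lists it as a polymorphic pseudogene, since strains such as C57BL/6 carry a disrupted allele. It was at 139, 196 and 29.4 CPM in the controls and at 89.8, 285 and 118 CPM in the knockout libraries. The groups overlapped (log2 fold change 0.43, SE 0.69, p = 0.554, exact permutation p = 0.7). Over the 4 libraries without Xist, both knockout libraries were below both controls and the gene was called lower (log2 fold change −0.69, SE 0.21), and without Nsd2 f/f replicate 3 or Nsd2 Vil-KO replicate 2 the values were −0.03 and −0.23.

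**Figure D3:**
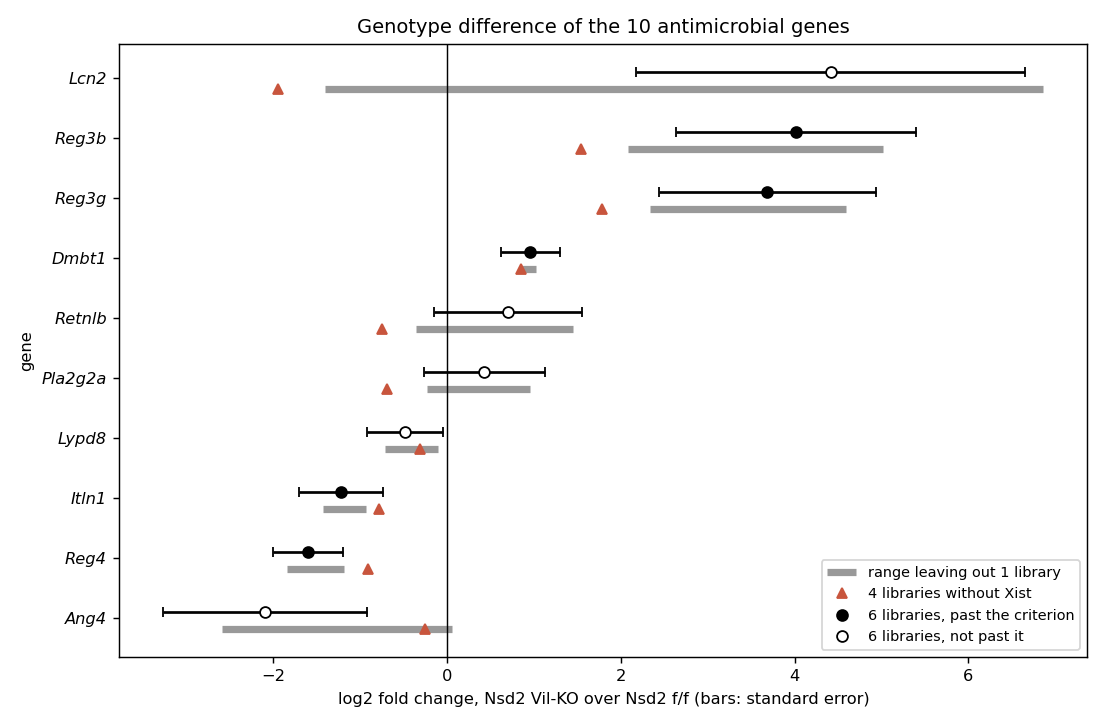
The horizontal axis is the log2 fold change of Nsd2 Vil-KO over Nsd2 f/f, with 1 gene a row. Circles with standard errors are the fit on 6 libraries, filled where the gene was called, grey bars span the 6 fits that leave out 1 library, and triangles are the fit on the 4 libraries without Xist. Lcn2 spans −1.40 to 6.86 when 1 library is left out, Dmbt1 spans 0.84 to 1.03, and Retnlb, Pla2g2a and Lcn2 have triangles below 0 and circles above it.

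The genotype difference was compared between the pair of libraries with Xist and the other 4. Between the 2 libraries with Xist, the log2 ratio of Nsd2 Vil-KO to Nsd2 f/f was 9.26 for Reg3b, 9.17 for Reg3g, 9.99 for Lcn2, 3.28 for Pla2g2a and −2.91 for Reg4. Between the group means of the other 4 it was 1.53, 1.78, −1.95, −0.70 and −0.92 in the same order. The interaction of genotype with the presence of Xist had an adjusted p below 0.05 for 4 members, Reg3b (0.0271), Reg3g (0.0283), Reg4 (0.00444) and Pla2g2a (0.00621), a property of 12.0% of all tested genes. The adjusted p was 0.164 for Lcn2 and 0.481 for Dmbt1, and the log2 ratio of Dmbt1 was 1.16 with Xist and 0.84 without. The spread in this test came from the 4 libraries without Xist alone, and the other 2 were singled out after they were seen to stand apart, so these p-values do not show that the effect of genotype differed. Each genotype held only 1 library with Xist, so the presence of Xist cannot be told apart from any other property of these 2 libraries.

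Levels of different genes were compared per length of annotated exon, as CPM divided by exon length in kilobases (RPKM). In Nsd2 f/f, Lypd8 was highest at 11574 ± 4768 RPKM (SD, n = 3), followed by Dmbt1 at 1152 ± 99.6 RPKM (SD, n = 3) and Reg4 at 483 ± 210.3 RPKM (SD, n = 3). The ranges of these first 3 did not touch. From Reg4 downwards, through Retnlb, Pla2g2a, Reg3b, Reg3g, Lcn2, Ang4 and Itln1, each gene overlapped the next in range. In Nsd2 Vil-KO, Lypd8 (8282 RPKM) and Dmbt1 (2237 RPKM) were again first and second, with ranges apart from each other, but Reg3b was the third (1346 RPKM) and Reg4 the eighth (159 RPKM), each overlapping its upper neighbour. Ang4 and Itln1 were the lowest in both genotypes. Over the whole panel, the members took 2.17%, 2.29% and 2.46% of the counts in the controls and 2.80%, 3.52% and 2.62% in the knockout libraries, while their summed CPM after TMM scaling overlapped between genotypes (19762 to 30725 against 24122 to 39780). Most of these counts were those of Dmbt1 and Lypd8. Without these 2 genes the summed CPM also overlapped (884 to 1303 in Nsd2 f/f against 1055 to 7841 in Nsd2 Vil-KO).

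Across the 6 libraries the members fell into patterns that are given as a description, since they share libraries, depth and genotype. On log2 CPM, Pearson's r with Reg3b was 0.99 for Reg3g, 0.84 for Lcn2, 0.82 for Pla2g2a and 0.82 for Dmbt1. It was −0.97 for Reg4 and −0.93 for Itln1, and Reg4 and Itln1 had an r of 0.97 with each other. Lypd8 and Ang4 had an r of 0.86, with both highest in Nsd2 f/f replicate 3. The 5 non-members with the highest r to Reg3b, counting genes whose mean reached 1 CPM, were Itgb1 (0.997), Cdk2ap1 (0.996), Nbea (0.995), Tubb2a (0.992) and Hnrnpdl (0.991). Their range was much narrower than that of Reg3b, with Itgb1, the integrin beta 1 chain, between 134 and 333 CPM, and none of the 5 was called.

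**Figure D4:**
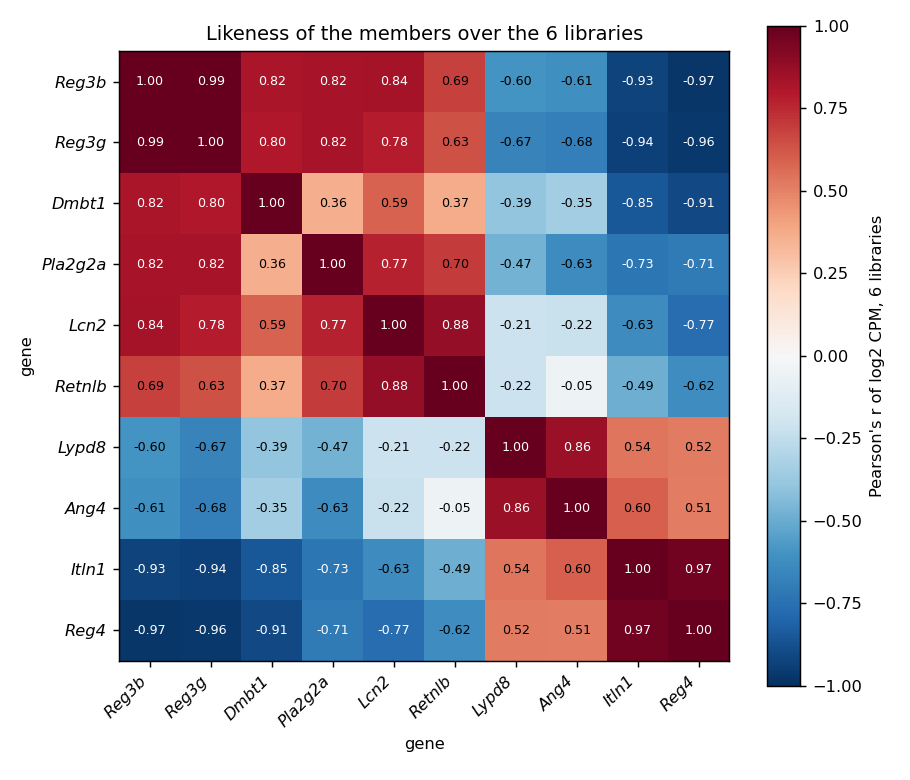
Both axes list the 10 genes, and each cell gives Pearson's r of log2 CPM over the 6 libraries, from blue at −1 to red at 1. Reg3b and Reg3g have an r of 0.99, and Reg4 and Itln1 are negative against both of them and positive against each other.

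Other antimicrobial genes did not pass the screen. Of 29 such genes in the table, 18 were tested and 0 were called, where the 3.29% called over all genes would give fewer than 1, with 7 log2 fold changes above 0 and 11 below and a median of −0.14. The most abundant were Zg16, a lectin that binds Gram-positive bacteria (log2 fold change −0.76, SE 0.52), Saa1, an acute phase protein (log2 fold change −0.79, SE 0.51), and Sprr2a3, a small proline-rich protein (log2 fold change 0.08, SE 0.24). Zg16 and Saa1 were each highest in Nsd2 f/f replicate 3, at 4111 and 2485 CPM, the library in which Reg3b, Reg3g and Lcn2 were lowest. The summed CPM of this list was 4505 to 10330 in Nsd2 f/f and 3803 to 7206 in Nsd2 Vil-KO.

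Genes of the signals that act on antimicrobial genes were likewise not called. Of 32 cytokines, receptors and transcription factors, 27 were tested and 0 were called, again where the overall share would give fewer than 1, with 19 log2 fold changes above 0, 8 below and a median of 0.12. The 3 most abundant were Klf4 (log2 fold change 0.03, SE 0.28), a factor of differentiated epithelium, Vdr (log2 fold change −0.16, SE 0.32), the vitamin D receptor, and Stat3 (log2 fold change 0.37, SE 0.23). Stat3, which carries the IL-22 signal, was at 210, 204 and 150.1 CPM in the controls and at 212, 293 and 222 CPM in the knockout libraries, without overlap. Of the 27, 4 were higher without overlap and 1 was lower, beside 5.21% and 4.70% of all tested genes, and Il22 itself was at or under 2.28 CPM in every library.

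Markers of other cell types were summed in the same way, and their sums overlapped between genotypes in each list given next except that of the pancreas. Macrophage markers summed to 109 to 467 CPM in Nsd2 f/f and 175 to 279 in Nsd2 Vil-KO, T and B cell markers to 13.2 to 50.6 and 11.8 to 58.6, and stromal markers to 9.78 to 268 and 7.05 to 75.0. The most abundant were Cd14 (log2 fold change 0.27, SE 0.35), Jchain (log2 fold change 0.55, SE 1.01) and Col3a1 (log2 fold change −2.11, SE 1.55), and Pecam1 was called lower (log2 fold change −1.33, SE 0.55). Of the pancreatic acinar list only Cela1 was abundant enough to be tested, and it was called lower (log2 fold change −0.97, SE 0.31), with the list at 150.4 to 300.4 CPM in Nsd2 f/f and 89.2 to 122 in Nsd2 Vil-KO. Of the squamous list Krt5, Krtdap and Sprr1b were at 0 in all libraries, Krt13 was called higher (log2 fold change 1.83, SE 0.64), Dsg3 was the most abundant (log2 fold change 1.87, SE 1.37), and the list summed to 1.37 to 7.48 and 2.96 to 19.0 CPM. Small intestinal markers, led by Fabp6 (log2 fold change −0.49, SE 0.60), summed to 14.7 to 57.1 and 11.3 to 28.5 CPM, and the distal Hox genes, led by Hoxb13 (log2 fold change −0.61, SE 0.37), to 439.8 to 887 and 390 to 476 CPM. Absorptive colonocyte markers summed to 3704 to 8404 and 3722 to 5529 CPM and general epithelial markers to 15614 to 25617 and 16941 to 25504 CPM. The part of these cells in the members' levels was not tested.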

How the data were processed

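RNA-seq of colon IECs from 3 Nsd2 f/f and 3 Nsd2 Vil-KO samples was analysed. The authors deposited raw counts of reads per Ensembl gene as whole numbers, without normalisation. The submitters' processing notes name HISAT2 and mm10, and the study describes polyA selection and trimming before alignment. The program that counted reads and its use of strand are not given in the sources used here, and labels and methods name different library kits. No exon of a member overlapped another annotated gene. All 6 count columns were used, matched by title.

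The test on these counts, in edgeR 4.0.16 (R 4.3.3), took TMM factors, filterByExpr (14650 genes), the newer quasi-likelihood form with robust estimation, genotype as the only term, and Benjamini-Hochberg adjustment over all tested genes. CPM uses TMM-scaled library sizes, and log2 CPM has a prior count of 2. RPKM uses exon lengths from GENCODE vM21 (GRCm38). Exact permutation tests cover the 10 splits of 3 against 3. In a library 3 counts equalled 0.146 to 0.242 CPM. The fit was first tested on simulated counts. Alternatives, beside DESeq2 1.42.0 and limma 3.58.1 (voom with sample quality weights, which changes both model and weighting), varied the size factors, the filter, the replicate block, Xist as a covariate, the libraries used and the fold limit. The older quasi-likelihood form and the Xist interaction were added after seeing the data. Promoters were aligned with Biopython 1.88 and figures drawn with matplotlib 3.10.9.

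The members and gene lists were chosen with earlier results of these data known. Named were Nsd2, the members, list genes that passed the screen (at most 5 in each direction, and 2 per marker list), the 3 most abundant genes of the other antimicrobial and signal lists and the most abundant of each marker list, and the 5 genes most correlated with Reg3b. Some markers named beside Lcn2 and Ang4 were chosen after their values were seen (S100a8, S100a9, Retnlg, Cxcr2, Mmp8, Csf3r, Mpo, Elane, Lyz1 and the defensins). Epcam, Krt8, Vil1 and Il22 were also chosen in this way.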

Additional observations from a re-analysis of the deposited data

Results flagged for a closer look

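For 4 members the genotype difference was not the same in the pair of libraries with Xist as in the other 4, by an interaction term added to the edgeR fit after seeing the data. The interaction, as the log2 fold change with Xist minus that without, was 7.72 for Reg3b (SE 0.90), 7.39 for Reg3g (SE 0.90), −1.99 for Reg4 (SE 0.23) and 3.97 for Pla2g2a (SE 0.39). For Reg3b, Reg3g and Reg4 the difference had the same sign in both sets and was larger with Xist, and for Pla2g2a the sign was opposite. With 1 library of each genotype holding Xist, the spread in this test came from the 4 libraries without it, and the lone libraries were assumed to vary alike, so the test does not show that the effect of genotype differed. Groups here were defined from Xist counts and not from the labels.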

How the results depend on the processing

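Of 166 member values under alternatives, 127 kept their direction and side of the screen, 25 lost the call, 2 gained it and 12 changed sign. Reg4 stayed called throughout. The 482 calls became 861 without a filter, 1440 with limma-voom and quality weights, 1145 with Xist as a covariate, 1646 over the 4 libraries without Xist and 323 to 769 with 1 library left out (769 without Nsd2 Vil-KO replicate 2). Calls at an adjusted p below 0.05 went from 0 to 4 with DESeq2. Of the members, 5 calls became 2 without a filter, 3 with DESeq2 (which gave no p for Reg3b and Lcn2), 3 with the Xist covariate (which lost Reg3b and Reg3g) and 2 to 4 with 1 library left out. The 4 libraries without Xist also called 5, with Pla2g2a in place of Itln1. Dmbt1, at a log2 fold change of 0.96, was not called at a fold limit of 2.

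Sign changes were Lcn2 at −0.70 with voom and quality weights, −0.30 with the Xist covariate, −1.95 over the 4 libraries and −1.40 without Nsd2 Vil-KO replicate 2, Retnlb at −0.76 with voom and these weights, −0.74 over the 4 libraries and −0.35 without that replicate, Pla2g2a at −0.50, −0.69 and −0.23 in the same 3 settings and −0.03 without Nsd2 f/f replicate 3, and Ang4 at 0.059 without that control. With 1 library left out, the ranges were −1.40 to 6.86 for Lcn2, −0.35 to 1.45 for Retnlb, −0.23 to 0.96 for Pla2g2a and −2.59 to 0.059 for Ang4. The causes were not tested beyond the libraries removed. Itln1 and Ang4 could not be tested at a minimum of 10 counts in each library.

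Replicate numbers are shared by the genotypes. The deviations of same-numbered libraries from their group means had an r of 0.32, −0.35 and −0.11, and the main fit did not pair them. With 3 libraries a group, and with the 2 libraries with Xist carrying different numbers, this check cannot exclude pairing. With a replicate block 303 genes and 3 members (Reg3b, Reg3g, Reg4) were called, and Dmbt1 (0.95, SE 0.50) and Itln1 (−1.22, SE 0.54) lost the call.

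Depth limits Itln1 and Ang4, with as few as 8 and 3 reads in a library, and 3 libraries a group limit the rest: the permutation test cannot go below 0.1.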

Other observations

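Nsd2 Vil-KO replicate 2, the library with the highest Reg3b, Reg3g and Lcn2, also held the highest levels of some further secreted defence genes. These were chosen from the 29 other antimicrobial genes after their values were seen. Others of that list, such as Zg16 and Saa1, were highest in another library. Slpi and Wfdc2 were not called, and Reg3a had too few counts to be tested. Slpi, a secreted leukocyte protease inhibitor with antimicrobial activity, was at 900.3 CPM there and between 33.4 and 119 CPM in the other 5 libraries. Wfdc2, a related whey acidic protein, was at 903 CPM there and between 65.1 and 259 CPM elsewhere. Reg3a, another RegIII lectin, was at 6.66 CPM there and at or under 0.297 CPM elsewhere. Mptx1, a mucosal pentraxin, went the other way, at 2.11 CPM in that library and between 101 and 1687 CPM in the others.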
